A study of Mus musculus with 30 samples.

Results

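Crosslinking and immunoprecipitation (CLIP) of A1CF from mouse hepatocytes gave 10 libraries, and in 5 of them, numbers 1, 3, 4, 6 and 10, Itpripl2 took more than 5% of all counts. The members described here are these 5 libraries, called the Itpripl2-rich libraries below, set against 3 RNA pools of hepatocytes with the same genotype label, out of 30 samples in the series. The 5 libraries were chosen by their Itpripl2 share, and within them genes were ranked by CLIP share and by the ratio of that share to the level in RNA. These values therefore describe the libraries and carry no test. A gene was ranked where it had a count in at least 3 of the 5 libraries, which held for 650 of the 41388 genes in the tables.

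A1CF, the APOBEC1 complementation factor, is an RNA-binding protein of liver and intestine. It is best known for docking the cytidine deaminase APOBEC1 onto Apob mRNA, where a cytidine is changed to uridine just upstream of an AU-rich stretch called the mooring sequence. The edited codon becomes a stop and gives the short form of apolipoprotein B. In CLIP, ultraviolet light fixes a protein to the RNA it touches, the complex is precipitated with an antibody, and the short RNA left on the protein is copied and sequenced.

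The CLIP libraries came from hepatocytes of 12-week-old mice labelled A1cf_Tg/+, which by that label carry an A1cf transgene and are called Tg here. The cells were freed with collagenase and kept overnight on collagen, irradiated at 254 nm with 400 mJ per square centimetre, and trimmed with RNase T1. The 3 Tg RNA pools and 3 wild-type C57BL/6J hepatocyte pools, also of 12-week-old mice, came from cells isolated and plated in the same way. Liver RNA came from 12-month-old mice: 4 Tg pools with 4 wild-type C57BL/6J pools, and 3 A1cf_-/- (knockout) pools with 3 wild-type C57BL/6NJ pools. Each RNA pool joined 3 to 4 mice. The labels name no promoter for the transgene and no separate culture or precipitate for the CLIP libraries. Spread between CLIP libraries may thus be technical, and no control precipitate is among the samples analysed here.

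The Itpripl2-rich libraries held 9692, 8037, 10902, 9944 and 8194 counts in libraries 1, 3, 4, 6 and 10, and the 3 Tg RNA pools held 26144213 to 37211328. A single count in the 46769 pooled CLIP counts was worth 21.4 CPM, the unit of counts scaled to a fixed library total that is used for RNA levels here. A gene with no pooled count could still hold up to 0.00642% of the counts, by a limit of 3 counts. Intervals given for shares and ratios are 95% intervals of the CLIP count and cover counting error only, since the fragments passed through 40 and then 35 PCR cycles and copies are not independent molecules. In RNA, A1cf itself was at 20.1 to 28.9 CPM in knockout livers, against 199 to 237 CPM in C57BL/6NJ livers. It was at 7.36 to 10.5 CPM in hepatocytes labelled Tg, against 6.46 to 11.0 CPM in wild-type hepatocytes, and at 156 to 174 CPM in livers labelled Tg, against 216 to 279 CPM in C57BL/6J livers. Gene counts thus showed no higher A1cf level under the Tg label. In Tg livers A1cf was lower, with a log2 fold change of -0.648 (adjusted p = 0.0369 by the edgeR test described below). That call was lost in 6 of 12 alternative fits.

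A sequence at the centre of A1CF's known work is shown first, since the Apob count is read against it below. The stretch was found by the letters TGATCAGT in the Apob transcript of GENCODE M21 (GRCm38), which holds 2 such matches in exon 26 of its 29 exons. The match that follows the edited cytidine lies at chr12:8008047-8008076 on the plus strand, and the edited base and the mooring sequence are in capitals.
Apob editing site: cgcgataCaattTGATCAGTATAttaaaga
The letters TGATCAGT alone occur in 3.23% of the 40254 genes with an M21 transcript, taking the longest transcript of each. They occur in 0 of the 20 transcripts of the genes with the highest CLIP share, in 3 of the top 100 and in 6.64% of all ranked genes. Genes with at least 1 CPM of Tg hepatocyte RNA have them in 5.53%, and those with at least 100 CPM in 5.57%. Transcript length differs between these sets, with a median of 1457 bases over all genes and 4013 in the top 100.

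A handful of RNAs made up most of each Itpripl2-rich library. The 4 genes of highest pooled share, Itpripl2, Fignl2, Zfhx3 and Ggta1, held 40.2% of the CLIP counts and 0.0279% of the counts in Tg hepatocyte RNA. The first 8 held 56.2% in CLIP, between 54.0% and 60.3% in single libraries, and 0.0305% in RNA. The first 20 held 67.0% in CLIP (64.6% to 70.1%) and 0.0756% in RNA, and the first 100 held 80.7% in CLIP and 0.347% in RNA. Shares are of counts and not per length. The same names led every library: any 2 of the 5 libraries shared 16 to 18 of their own top 20 genes, and 16 were in all 5.

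Itpripl2 (ENSMUSG00000095115, GRCm38 chromosome 7, 118485114 to 118491975) encodes a little-studied membrane protein named for its likeness to the inositol trisphosphate receptor-interacting protein. It had 1409, 865, 1269, 1040 and 951 counts in CLIP libraries 1, 3, 4, 6 and 10, or 11.8% ± 1.61 of each library (SD, n = 5). In Tg hepatocyte RNA it was at 68.4, 102 and 184 CPM. Its CLIP share was 1001 times its RNA level, with an interval of 975 to 1027. That interval leaves out the spread of the RNA pools, and without Tg pool 3 the ratio was 1386. Library 1 stood above the other 4, which lay between 10.5% and 11.6%.

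Fignl2 (chromosome 15) encodes fidgetin-like 2, of a family of ATPases that cut microtubules. Its 999, 817, 1133, 965 and 877 counts were 10.2% of the pooled CLIP counts, against 15.5, 20.03 and 14.4 CPM in Tg hepatocyte RNA, a ratio of 6160. Zfhx3 (chromosome 8), a large zinc-finger and homeobox transcription factor, had 811, 833, 812, 1167 and 919 counts, or 9.71%. It was at 100, 147 and 173 CPM in Tg RNA, and its ratio of 693 was the lowest of the first 4. Genes Gm20686 and Mir3108 overlap Zfhx3, and the strand setting of the counting is not given in the sources used here. Ggta1 (chromosome 2), the enzyme that builds the alpha-gal sugar on cell surfaces, had 851, 635, 842, 833 and 797 counts, or 8.46%. In Tg RNA it was at only 2.88, 5.05 and 4.93 CPM, so that its ratio of 19740 was the highest among ranked genes with at least 1 CPM of RNA.

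The next genes in the order were nearly silent in hepatocyte RNA. Nos3, the endothelial nitric oxide synthase, had 503, 467, 560, 553 and 465 CLIP counts, against 0.538, 0.457 and 0.574 CPM in Tg RNA. Grin3b, a subunit of NMDA-type glutamate receptors, had 329, 351, 441, 401 and 359 counts, against 0.188, 0.335 and 0.344 CPM. The spans of both, introns included, overlap genes on the other strand, Atg9b and Gm15587 at Nos3 and Tmem259 at Grin3b. Counts made without strand could not tell them apart where exons overlap, which was not examined. The spans of Slc16a10, Sox4, Tenm2 and Sec14l2, named below, also overlap genes on the other strand.

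Fzd10, a receptor for Wnt ligands, was the member that varied most among the leading 8. It had 679, 212, 581, 55 and 42 counts in libraries 1, 3, 4, 6 and 10, from 7.01% of library 1 down to 0.513% of library 10. The Tg RNA pools held 4, 2 and 2 counts of it. Ppia, which encodes the peptidyl-prolyl isomerase cyclophilin A, held 265, 250, 289, 356 and 321 counts and was at 25.61, 25.05 and 25.02 CPM in Tg RNA. Ppia has many processed copies in the genome, so that reads could be lost or misplaced among them in either assay, and its ratio of 1255 is uncertain.

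**Figure D1:**
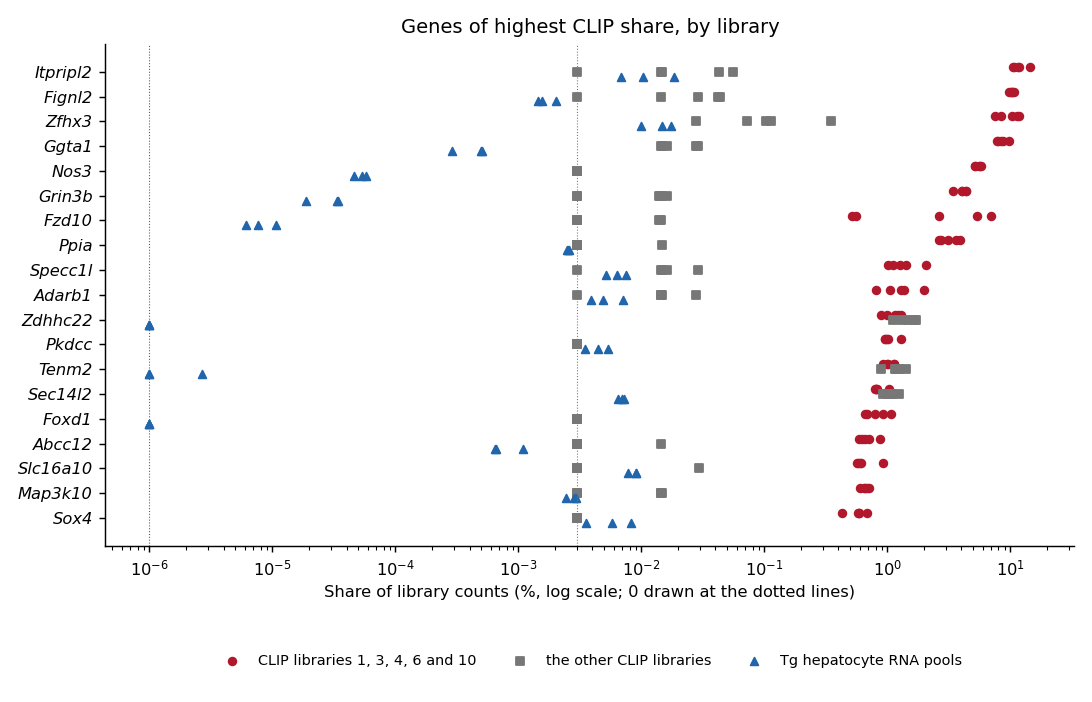
Share of library counts (percent, log scale) for 19 of the 20 genes of highest CLIP share, with 1 point per sample: circles are CLIP libraries 1, 3, 4, 6 and 10, squares the other 5 CLIP libraries, and triangles the 3 Tg hepatocyte RNA pools. The Itpripl2-rich libraries lie far above the RNA pools for every gene drawn, while Zdhhc22, Tenm2 and Sec14l2 are as high in the other CLIP libraries.

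From rank 9 on, pooled shares were 1.35% or less. Specc1l, a protein that links actin and microtubules, had 91 to 164 counts per library, and Adarb1, the enzyme ADAR2 that changes adenosine to inosine in double-stranded RNA, had 78 to 161. Pkdcc, a secreted tyrosine kinase, had 79 to 124 counts, and Abcc12, a transporter of the ABC family, 50 to 71. Slc16a10, which carries aromatic amino acids, had 46 to 100 counts, Map3k10, a mixed-lineage kinase, 53 to 77, and Sox4, a transcription factor of progenitor cells, 35 to 68. Tg RNA held these 7 genes at means of 7.96 CPM (Abcc12) to 86.1 CPM (Slc16a10). Their ratios ran from 77.2 for Slc16a10 to 857 for Abcc12.

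Of the 20 leading genes, 4 were under 0.1 CPM in Tg RNA: Fzd10, described above, and Zdhhc22, Foxd1 and Tenm2. Zdhhc22, a palmitoyltransferase, had 86, 104, 109, 115 and 100 CLIP counts and none in any Tg RNA pool. Foxd1, a forkhead factor known from kidney stroma, had 64, 64, 75, 106 and 75 CLIP counts and likewise none in Tg RNA. Against a floor of 3 counts summed over the RNA pools, the CLIP share was at least 352400-fold higher for Zdhhc22 and at least 263300-fold higher for Foxd1. Tenm2, a teneurin adhesion protein of neurons, had 90, 91, 109, 112 and 83 CLIP counts and a single count in the RNA pools.

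Ranked by ratio among genes with at least 1 CPM of Tg RNA, the first 15 were Ggta1, Fignl2, Fut11, Nfatc2, Ppia, Itpripl2, Abcc12, 2610206C17Rik, Lyrm9, Zfhx3, Gm26819, Fkbp14, F8, Ctcflos and Shank3. Ratios ran from 19740 down to 341. Gm26819, Fkbp14, F8, Ctcflos and Shank3 overlap genes on the other strand, among them Med10, Plekha8, Fundc2, Ctcfl and Gm15609 in that order. Counts made without strand could not tell these apart where exons overlap, which was not examined. Fut11, a fucosyltransferase gene that overlaps 6230400D17Rik, owed its ratio of 2624 largely to 1 library, with 114 counts in library 1 and 15, 31, 14 and 11 in libraries 3, 4, 6 and 10. Without library 1 its ratio was 1270. Nfatc2, a transcription factor of activated T cells, was more even, with 54, 35, 43, 38 and 23 counts at 1.68 ± 0.63 CPM of RNA (SD, n = 3). F8, the gene of coagulation factor VIII, and Shank3, a scaffold of synapses, reached the list with 26 pooled counts each. RNA of F8 was at 0.43, 0.548 and 3.595 CPM in Tg pools 1, 2 and 3, so that it passed 1 CPM through pool 3, and its ratio was 365 with that pool and 1137 without it. The intervals of F8, Ctcflos and Shank3, the last 3 genes in this order, were 238 to 534, 209 to 558 and 223 to 500. Their places cannot be told apart. Higher up, the intervals of Fut11 (2259 to 3031) and Nfatc2 (2116 to 2821) overlapped. Without Tg pool 3 the ratio of Itpripl2 (1386) passed that of Ppia (1250). From Abcc12 down, the interval of each gene overlapped that of the next, so that neighbouring places are unsettled there too. For instance, Gm26819 was at 444 to 888 and Fkbp14 at 304 to 520.

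Below the leaders the ranked genes were sparse. The median ranked gene had 7 pooled counts. At the detection threshold, genes seen in 3 libraries had a median of 4 pooled counts and at most 17, and genes seen in 2 libraries a median of 2 and at most 107. Genes with 20 or more counts that stayed unranked numbered 10, since nearly all their counts sat in 1 library. They include Chrne, a subunit of the muscle acetylcholine receptor, with all 249 counts in library 6, and Fbxo30, a ubiquitin ligase component, with 106 counts in library 4 and 1 in library 6. These were chosen after their values were seen. Of the 650 ranked genes 599 were protein coding, 17 antisense, 16 lincRNA, 7 processed pseudogenes and 11 of other classes, on 20 chromosomes, and none was mitochondrial.

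The pairs of Itpripl2-rich libraries were compared over genes with at least 10 counts in the pair. Chi-square per degree of freedom ran from 3.11 to 11.3 over the 10 pairs, with a median of 4.95, where read-counting noise alone gives about 1. PCR copies raise this value without any difference between libraries, and their part was not tested. No pair agreed within read-counting noise. Since PCR copies can give this result for libraries of 1 precipitate too, it cannot show that the libraries are separate samples. Values are given per library for description.

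CLIP counts fell mostly on genes of low or middling RNA level. Genes with no count in any Tg RNA pool held 5.24% of the pooled CLIP counts, and genes at or below 1 CPM held a further 23.1%, against 0.161% of the RNA. Genes at 1 to 10 CPM held 14.3% in CLIP and 1.451% in RNA, and those at 10 to 100 CPM 31.6% in CLIP and 24.8% in RNA. In these totals the order turned above that level. Genes at 100 to 1000 CPM held 25.6% in CLIP and 44.5% in RNA, and Itpripl2 and Zfhx3 alone gave 10076 of that class's 11971 CLIP counts. Without these 2 genes the class held 4.05% of CLIP counts. Nor was the class below it even, since Fignl2 and Ppia gave 6272 of its 14794 counts. At the top, the 95 genes above 1000 CPM held 0.109% in CLIP and 29.1% in RNA. Each of the 5 libraries showed the same split, with 20.7% to 25.3% in the class above 0 to 1 CPM and 0.0619% to 0.165% in the class above 1000 CPM.

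**Figure D2:**
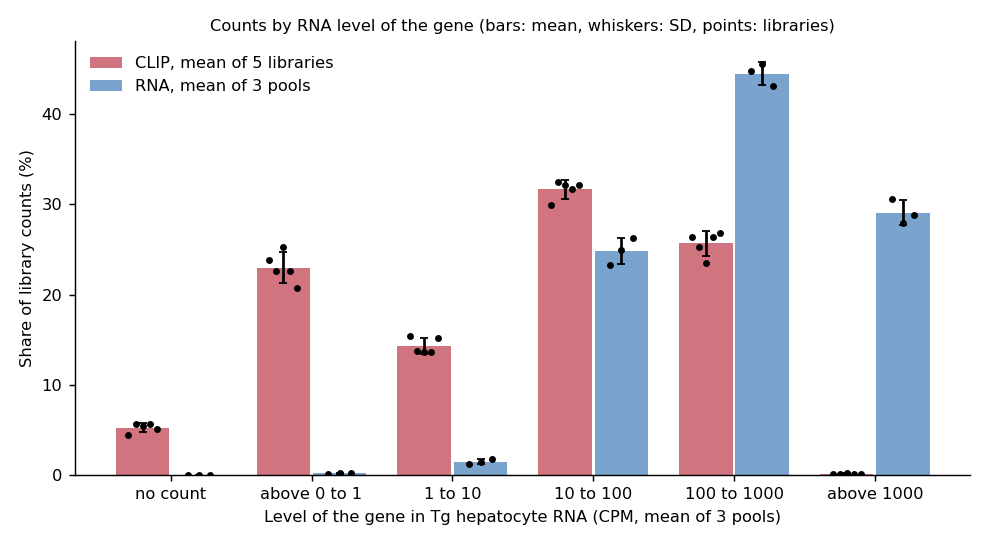
Share of library counts (percent) by the level of each gene in Tg hepatocyte RNA (CPM), CLIP bars left of RNA bars; bars are means over 5 CLIP libraries and 3 RNA pools, whiskers SD and points single libraries. Genes above 1000 CPM hold 29.1% of RNA and 0.109% of CLIP counts.

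Among the ranked genes, 81 had no Tg RNA count, 234 in all were under 1 CPM, 95 were at 1 to 10 CPM and 321 at 10 CPM or more. A ratio above 1 was found for 576 and below 1 for 74. Much of that count follows from depth, because 3 pooled counts already equal 64.1 CPM and 499 of the ranked genes were below that level in RNA. No such limit holds for abundant RNAs. At their RNA share, 779 genes should have had at least 10 CLIP counts each. Of these, 611 had none, 39 were ranked and 10 had a ratio above 1. Together they had 661 CLIP counts, against 26120 at their RNA share.

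**Figure D3:**
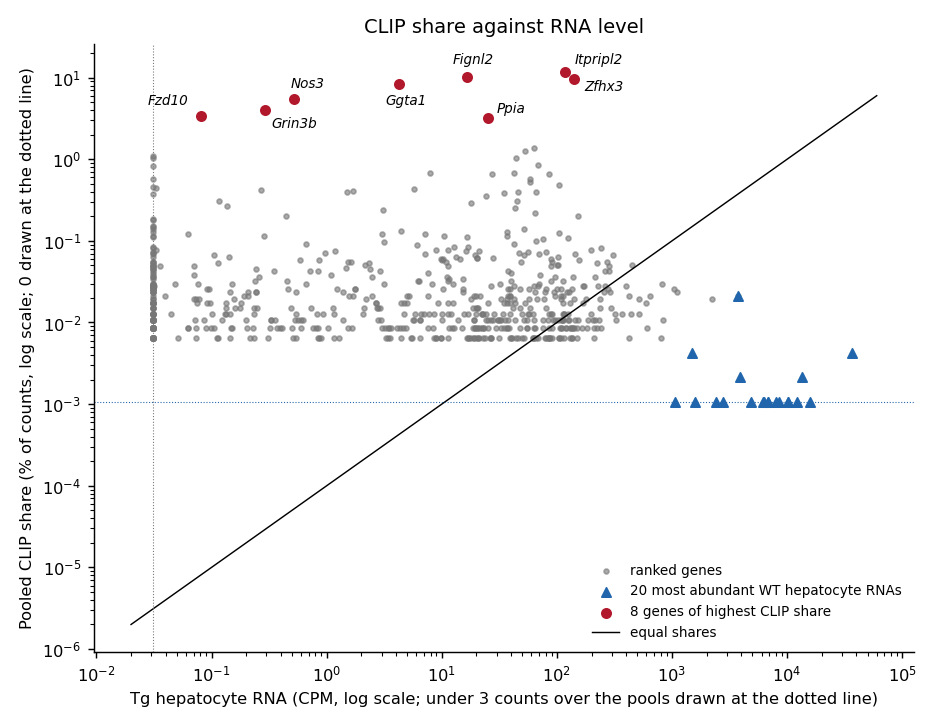
Pooled CLIP share (percent of counts, log scale) against the mean level in Tg hepatocyte RNA (CPM, log scale) for the 650 ranked genes (grey), the 8 of highest CLIP share (red) and the 20 most abundant RNAs of wild-type hepatocytes (blue triangles); the line marks equal shares. The 8 leaders lie above the line at RNA levels between 0.0816 and 140 CPM, and all 20 abundant RNAs lie below it.

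The RNAs that fill a hepatocyte were almost missing from these libraries. The 20 most abundant RNAs of wild-type hepatocytes, a choice that used pools outside the ranking, had 16 CLIP counts together, or 0.0342% (0.0211% to 0.0556%), and 16.3% of Tg hepatocyte RNA. That is 477-fold below their RNA share, and 15 of the 20 had no count. Shares of the other RNAs depend on the leaders that fill these libraries: with the 10 leading genes left out of both totals the 20 held 0.08315% of CLIP counts and stood 196.5-fold below. Leaving them out raises the ratio of every other gene by the same factor of 2.43, for instance to 187.6 for Slc16a10 and 2082 for Abcc12. Alb, which encodes serum albumin, had 2 counts against 1728 at its RNA share, a ratio of 0.00116 (0.00014 to 0.00418). Apoe, an apolipoprotein of lipid particles, had 1 count against 631, a ratio of 0.00158 (4.01e-05 to 0.00883). The haemopexin gene Hpx, the actin gene Actb and the complement gene C3 had none, which puts them at least 244-fold, 192-fold and 158-fold below their RNA shares. Eef2, a ribosomal elongation factor, was the best recovered, with 2, 1, 2, 1 and 4 counts against 174.

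Apob, A1CF's classical target, had 0, 0, 1, 1 and 0 counts in libraries 1, 3, 4, 6 and 10. At its mean of 1479 CPM in Tg RNA, 69.2 counts would equal its RNA share, and the ratio was 0.0289 with an interval of 0.0035 to 0.104. Its Tg RNA level was uneven, at 578, 704 and 3157 CPM in the 3 pools. A1cf mRNA itself had no CLIP count, and at 0.431 counts expected from its RNA share this depth could not show a difference.

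**Figure D4:**
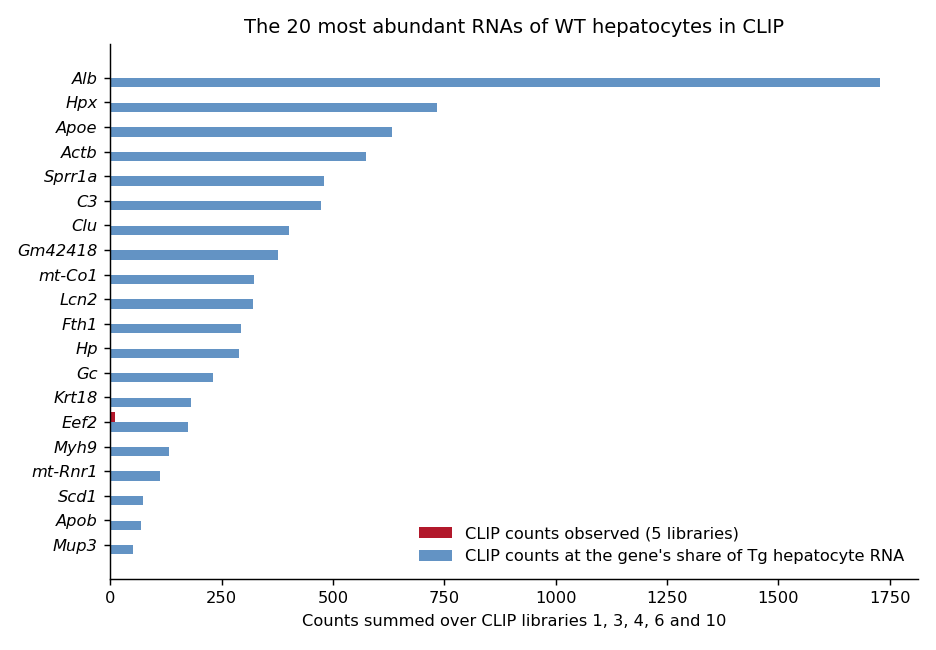
Counts summed over CLIP libraries 1, 3, 4, 6 and 10 (upper bar of each pair) beside the counts that would equal the gene's share of Tg hepatocyte RNA (lower bar), for the 20 most abundant RNAs of wild-type hepatocytes. Eef2 has the longest observed bar, at 10 counts, and Alb the longest expected bar, at 1728.

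Most lists of genes with known roles were below their RNA share, given here as counts without a test. The 31 secreted plasma proteins had 15 CLIP counts, 9 of them from the fibronectin gene Fn1, against 4953 at their RNA share. The 15 apolipoproteins had 3 against 1500, the 12 hepatocyte markers 3 against 2463, and the 80 cytoplasmic ribosomal proteins 10 against 367. The 24 P450 and xenobiotic genes had 0 against 281 and the 37 mitochondrially encoded genes 0 against 976. The 26 mRNAs reported elsewhere as APOBEC1 editing targets had 15 counts against 294, of which the stress-response gene Tmbim6 gave 11. The 10 editing factors had 6 against 46.7, of which the splicing regulator Khsrp gave 4, and the 33 splicing factors and hnRNPs 23 against 152. Lipid genes had 15 against 287 and genes of fructose and glucose handling 3 against 205. The list of nuclear and long noncoding RNAs was above its RNA share only through Pantr1, with 106 counts against 40.8. Pantr1 gave 86 of these and had no Tg RNA count, so that it added nothing to the 40.8. The rest, together below 40.8, were 18 from Neat1 and 1 each from Xist and Tug1. Neat1, a scaffold RNA of nuclear paraspeckles, had 3.33 at its own RNA share.

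Markers of other liver cells were also read in the libraries. The 10 macrophage markers and the 6 cholangiocyte markers had 0 CLIP counts, against 22.4 and 26.1 at their RNA share, and the endothelial markers 4 against 3.11, with Pecam1, Kdr and Lyve1 at 0. The stellate cell list had counts for 3 of its 8 genes, at 0.362% to 0.488% of each library, while it summed to 12.5 to 17.6 CPM in the Tg RNA pools. Of its 203 counts, against 0.705 at its RNA share, 198 were from Des, the gene of the filament protein desmin, at 0.269 CPM of Tg RNA. The other stellate markers Dcn, Lrat, Col1a1, Col1a2 and Pdgfrb had no count. Des counts were 43, 37, 45, 34 and 39 in the 5 libraries. The span of Gm15179 overlaps that of Des on the other strand. Counts made without strand could not tell them apart where exons overlap, which was not examined. In bulk RNA, fewer cells of a type and less RNA per cell cannot be told apart.

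The other 5 CLIP libraries, numbers 2, 5, 7, 8 and 9, bear the same labels and were led by other genes. Itpripl2 was at 10.5% to 14.5% in the Itpripl2-rich libraries and at 0 to 0.0555% in the others, and the noncoding RNA Pantr1 at 0.114% to 0.302% in the Itpripl2-rich libraries and 15.9% to 18.5% in the others. The first 8 genes, at 56.2% of the Itpripl2-rich counts, made up 0.223% of the others. Of the 650 ranked genes 238 had no count in the other libraries, and 248 had a count in at least 3 of them, which is 38.1% of the ranked genes and 35.8% of the 692 genes seen that often in the others. These figures are descriptions, since the split of the libraries was chosen on Itpripl2.

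Some of the leading genes did not follow the split. Zdhhc22 had 514 counts in the Itpripl2-rich libraries and 493 in the others, Tenm2 485 and 402, and Sec14l2, a lipid-binding protein of the SEC14 family, 395 and 360. Lyrm9, of the LYR-motif family, had 200 and 140. Their shares in both sets differed far less than those of Foxd1, Sox4, Pkdcc and Nos3, which had 384, 270, 489 and 2548 counts in the Itpripl2-rich libraries and none in the others.

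Transcripts of the CLIP genes were compared with other genes in length and base composition, using the longest M21 transcript of each (648 of 650 matched). Median length was 4604 bases for the top 20, 4013 for the top 100 and 3881 for all ranked genes, against 3359 for the 11679 matched genes with at least 1 CPM of Tg RNA. Median GC content was 53.0%, 52.9% and 51.1%, against 49.7% for the genes with at least 1 CPM and 52.5% for those with at least 100 CPM. The letters TAATTA, the core of the AU-rich sequence that A1CF selects in vitro, were counted on the transcript strand. They occurred 0.113 times per kb in the top 20, 0.139 in the top 100 and 0.155 in all ranked genes. Genes with at least 1 CPM of RNA had 0.189 and those with at least 100 CPM 0.127, so the direction depends on the genes compared. At least 1 match was present in 7 of the top 20 transcripts, 39.0% of the top 100 and 41.7% of the ranked. It was present in 39.9% of genes with at least 1 CPM and 32.1% of those with at least 100 CPM. Itpripl2 and Ppia had 3 matches each, Adarb1 2 and Zfhx3 1, and Fignl2, Ggta1, Nos3, Grin3b and Fzd10 none. Gene counts do not place a CLIP read within its transcript, so these matches are descriptions of whole transcripts.

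The RNA of these libraries was copied with the primers DP5a and DP3, shown because the search below used their last 8 bases (capitals). DP3 is given in the direction in which the labels write it; the labels write its linker RL3 in the opposite direction, so that RL3 read backwards is the reverse complement of DP3.
DP5a: agggaggaCGATGCGG
DP3: ccgctggaagtgACTGACAC
The last 8 bases of DP5a occurred on either strand in 7 of the top 100 transcripts and in 2.88% of genes with at least 1 CPM of Tg RNA, and those of DP3 in 14 of the top 100 and 11.8%. In the top 20 the transcripts with a match were 1 and 3. Transcript length differs between these sets. Per kb, the bases of DP5a matched 0.0154 times in the top 100, 0.00762 in genes with at least 1 CPM and 0.0098 in those with at least 100 CPM. Those of DP3 matched 0.0331, 0.034 and 0.032 times per kb in the same order. Any part of primer matches in the recovery of these genes was not tested.

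Whether the RNA level of the CLIP genes differed with A1cf genotype was asked in 3 comparisons, with edgeR's quasi-likelihood test adjusted over all genes. The hepatocyte comparison shares its Tg pools with the ratio above, so genes are counted in it by CLIP share alone. Of the 100 genes of highest CLIP share 71 were tested there, and 1 was higher and 0 lower in Tg hepatocytes, where 1.53% of all 13770 genes were called higher and 1.62% lower. In knockout livers 76 were tested, and 0 were higher and 2 lower, beside 1.5% and 1.48% of all 15942 genes. In Tg livers 75 were tested, and 0 were higher and 1 lower, beside 0.971% and 0.361% of all 14110 genes. These shares of called genes are near those of all genes. An edgeR unadjusted p under 0.05 was found for 20 of 71, 28 of 76 and 20 of 75 in the same order. These are 28.2%, 36.8% and 26.7%, beside 28.9%, 18.4% and 20.3% of all genes. The higher share in knockout livers was not tested. Median log2 fold changes of the 100 were -0.07, 0.06 and -0.03 in the hepatocyte, knockout liver and Tg liver comparisons, and -0.0202, -0.0077 and -0.0048 over all genes tested. DESeq2, over the genes to which it gave an adjusted p, called 12 of 69, 5 of 76 and 10 of 73 of them in the hepatocyte, knockout liver and Tg liver comparisons, beside 15.3%, 5.6% and 9.22% of all genes. These are 17.4%, 6.58% and 13.7% of the genes given one, and nothing particular to the CLIP genes is read from them.

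Cebpd, a transcription factor of the acute-phase response, ranked 97 by CLIP share with 30 pooled counts. Its RNA was at 99.9, 120 and 87.3 CPM in Tg hepatocytes, against 46.6, 28.5 and 28.5 CPM in wild-type hepatocytes, and the groups did not overlap. It rose by a log2 fold change of 1.603 ± 0.25 (SE, edgeR adjusted p = 0.0298). The call was lost without Tg pool 1 (adjusted p = 0.106) or 2 (0.153) and without wild-type pool 2 (0.0839) or 3 (0.14).

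Ppl, the gene of periplakin, a protein that ties intermediate filaments to cell junctions, ranked 37 with 135 pooled CLIP counts and had 111 in the other CLIP libraries. Its RNA was at 22.8, 21.4 and 22.4 CPM in knockout livers, against 39.6, 55.2 and 76.5 CPM in C57BL/6NJ livers. Every knockout pool was below every wild-type pool. It fell by a log2 fold change of -1.37 ± 0.19 (edgeR adjusted p = 0.00697), and kept its call in all 10 alternative fits, with adjusted p up to 0.0387.

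Hccs, which attaches haem to cytochrome c, ranked 71 with 39 pooled CLIP counts. Its RNA was at 7.29, 7.72 and 7.44 CPM in knockout livers, against 10.5, 11.5 and 9.87 CPM in C57BL/6NJ livers, without overlap. The log2 fold change was -0.51 ± 0.12 (edgeR adjusted p = 0.0492). It lost its call when each of the 6 pools was left out in turn, at adjusted p of 0.0527 to 0.213, and with RLE factors in place of TMM (0.0527).

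Dmrta1, a transcription factor of the doublesex-related family, ranked 35 with 144 pooled CLIP counts and had 133 in the other CLIP libraries. Its RNA was at 1.15, 1.46, 0.338 and 0.705 CPM in Tg livers, against 4.73, 3.48, 3.36 and 5.05 CPM in C57BL/6J livers, without overlap. The log2 fold change was -2.30 ± 0.41 (edgeR adjusted p = 0.038). The call was lost without Tg pool 4 (adjusted p = 0.117) and without wild-type pool 1 (0.113), 3 (0.106) or 4 (0.108).

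**Figure D5:**
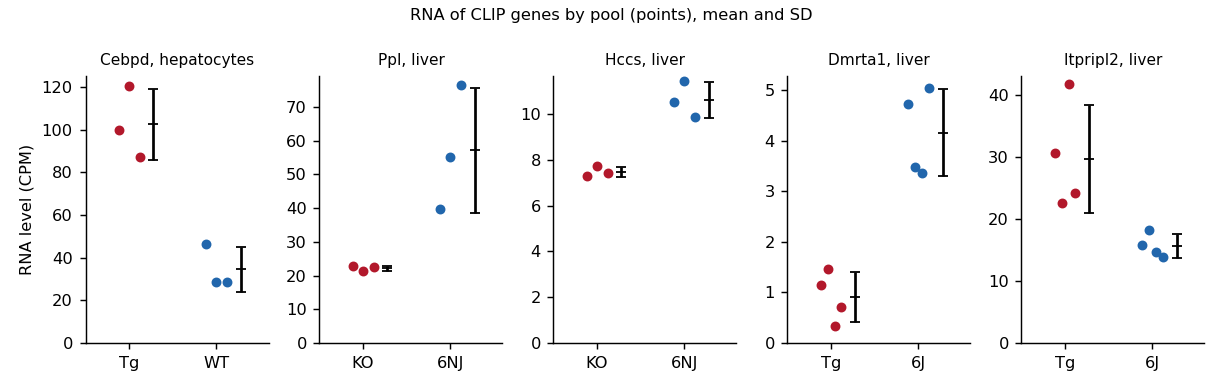
RNA level (CPM) of 5 CLIP genes by pool, with Tg or knockout points left of the wild-type points of the same tissue; horizontal marks and whiskers are mean and SD. Ppl lies at 21.4 to 22.8 CPM in all 3 knockout livers and above 39 CPM in the C57BL/6NJ livers.

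None of the 20 leading CLIP genes passed edgeR's threshold in any of the 3 comparisons, while 4 of the 16 tested in hepatocytes, 5 of 16 in knockout livers and 4 of 15 in Tg livers had an unadjusted p under 0.05, beside 28.9%, 18.4% and 20.3% of all genes. DESeq2 called 2 of 15 in hepatocytes, Abcc12 among them, 0 of 16 in knockout livers and 2 of 15 in Tg livers (Itpripl2 and Abcc12). These are 13.3%, 0% and 13.3% of the genes given an adjusted p, beside 15.3%, 5.6% and 9.22% of all genes. For Abcc12 edgeR's log2 fold change was -1.146 in hepatocytes and 5.17 in Tg livers. Itpripl2 RNA was at 30.6, 22.5, 41.7 and 24.1 CPM in Tg livers, against 15.8, 18.2, 14.7 and 13.9 CPM in C57BL/6J livers. All Tg livers were above all wild-type livers, with a log2 fold change of 0.79 ± 0.18, an edgeR adjusted p of 0.0689 and a DESeq2 adjusted p of 0.00441. It was at 15.5, 18.1 and 18.98 CPM in knockout livers, against 16.8, 15.1 and 14.0 CPM in C57BL/6NJ livers, and its log2 fold change was 0.19 ± 0.12 (edgeR adjusted p = 0.436). In hepatocytes it was at 68.4, 102 and 184 CPM in Tg pools, against 72.8, 115 and 96.0 CPM in wild-type pools, with a log2 fold change of 0.35 ± 0.34 (edgeR adjusted p = 0.487).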

How the data were processed

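Per the submitters' processing notes, reads were called with bcl2fastq, aligned with STAR 2.0.4b to GRCm38 and assigned to genes with featureCounts 1.45 of Subread. The strand setting, annotation release, multi-mapping and duplicate handling are not given in the sources used here. The authors deposited raw counts per gene, which were analysed. The deposited CPM and RPKM values were recomputed from the counts, differing by at most 4.9e-10 and 1.6e-10, and were not tested. Of 41388 gene IDs, 40340 were in GENCODE M21 and 40254 in the name table.

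CLIP share is a gene's counts over the pooled library total, and the ratio divides it, in CPM, by the mean CPM of the Tg hepatocyte RNA pools. Share intervals are Wilson intervals and ratio intervals exact Poisson intervals of the CLIP count. RNA comparisons were fitted in edgeR 4.0.16 (R 4.3.3) after filterByExpr with TMM factors, each on its own groups, two-sided, with Benjamini-Hochberg adjustment at 0.05. DESeq2 1.42.0 was an alternative, with the same filter. Both fitting and agreement steps were tested on simulated data. RNA p-values measure the spread between pools.

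Genes named are Itpripl2, Apob, A1cf, the 20 of highest CLIP share, the 15 of highest ratio at 1 CPM or more, the 20 most abundant wild-type hepatocyte RNAs, called members of the top 100, and up to 4 members of each of 20 gene lists. The library set, members, lists and alternatives were chosen with earlier results of these data known. In the block and DESeq2 alternatives, the filter was set to that of the main fit after a first run had used another. A gene that this rule took is not reported here.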

Additional observations from a re-analysis of the deposited data

Results flagged for a closer look

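A total of 62 sets of values of named genes were screened for a sample standing apart, and 7 were found. Each set covered 4 or 5 samples of one group. The nominal rate of the screen is about 1 in 20. It cannot be held against the count of 7, because genes and CLIP libraries were chosen by the same shares that were screened. The 7 are listed for description, and no excess over chance is read from them. In the Itpripl2-rich CLIP libraries, library 1 was high for Itpripl2, with 14.54% against 10.5% to 11.6% in the other 4, for Pkdcc, with 1.279% against 0.955% to 1.02%, and for Fut11, with 1.176% against 0.134% to 0.284%. Library 3 was high for Sec14l2, with 1.033% against 0.789% to 0.815%. Library 4 was high for Slc16a10, with 0.9173% against 0.568% to 0.61%. In RNA, Tg liver pool 3 held 22.21 CPM of Abcc12, against 0.653 to 2.44 CPM in the other 3 Tg livers. C57BL/6J liver pool 1 held 278.7 CPM of A1cf, against 216 to 218 CPM in the other 3.

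Effects of the Tg label in opposite directions in hepatocytes and liver were looked for in 16 named genes and were found in 3, where every Tg pool lay on one side of the wild-type mean in hepatocytes and on the other side in liver. These differences were not tested. The log2 ratio of mean CPM, Tg over wild type, was -0.3347 in hepatocytes and 0.73 in liver for Ggta1, -0.3154 in hepatocytes and 0.1233 in liver for Specc1l, and -1.179 in hepatocytes and 5.412 in liver for Abcc12. All 4 Tg livers were above all C57BL/6J livers for Abcc12, with pool 3 the highest. For Specc1l, edgeR's scaled log2 fold change in liver was -0.01. None of these 3 genes passed edgeR's threshold in either comparison.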

How the results depend on the processing

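Asking for a count in at least 2 or in all 5 CLIP libraries gave 1202 or 244 ranked genes, of which 429 or 93 were under 1 CPM of RNA. The 20 most abundant RNAs held 0.08315% of CLIP counts once the 10 leading genes were left out of the totals, and the median chi-square per degree of freedom was 7.886 over genes with a pair sum of at least 20. Leaving out single CLIP libraries or RNA pools gave 470 to 650 ranked genes, 174 to 239 of them under 1 CPM, 55.18% to 56.85% in the first 8 genes, 0.03067% to 0.03776% in the 20 abundant RNAs, and 19 to 20 of the top 20 and 13 to 15 of the top 15 genes.

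Called genes in the RNA comparisons moved more. In hepatocytes, where edgeR called 211 higher and 223 lower, DESeq2 called 2026 (12 of the top 100), no filter 669 (3), and single pools left out 0 to 4934 (0 to 25). For knockout livers DESeq2 called 892 (5), no filter 1079 (5), RLE factors 1 of the top 100, and single pools left out 137 to 645 (1 to 2). For Tg livers DESeq2 called 1242 (10), and single pools left out 27 to 561 (0 to 4). Where a group was left with 2 pools, the spread was pooled with the other group. The cause of these moves was not tested.

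Equal replicate numbers did not pair the samples: correlations of their deviations ran from -0.506 to 0.686 in hepatocytes, 0.00767 to 0.0575 in knockout livers and -0.15 to 0.0451 in Tg livers. With the replicate block 21, 415 and 44 genes were called in hepatocytes, knockout livers and Tg livers, and 0, 1 and 0 of the top 100. Under it the adjusted p was 0.055 for Cebpd, 0.0848 for Hccs and 0.0997 for Dmrta1. No called value changed sign under the alternatives run. Among single genes, 857 values kept their call or moved within their spread, 51 moved by more than their spread, and 14 calls were gained and 24 lost.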
